A study of Mus musculus with 12 samples.

Results

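Liver macrophages of mice with inherited red cell destruction were compared with those of wild-type littermates, both given saline. The comparison takes the 3 libraries of sph/sph mice given saline intraperitoneally and the 3 libraries of wild-type (wt/wt, WT) mice given the same, that is 6 of the 12 RNA-seq libraries of the study, and all 13844 genes that passed the filter on low counts, of 25700 gene identifiers in the count table. All mice were labelled male and aged 8 to 10 weeks. The other 6 libraries came from the same genotypes given 20 mg/kg of an agonistic anti-CD40 antibody 30 h earlier, and they entered the fit to estimate the spread between libraries. The headings of the WT columns in the count table begin with Hetero, whereas the sample labels give wt/wt, so these libraries are called WT here as labelled. Cells were nonparenchymal liver cells enriched with magnetic beads for the macrophage surface protein F4/80, so each library is an enrichment that may hold other cells, and in such bulk libraries fewer cells of a type and less RNA per cell cannot be told apart. The sph allele is present in the whole animal, so blood, spleen, marrow and liver all carry it. The libraries of each group are called A, B and C, in the order of the table's columns. The study's design text counts 3 mice per group, so the libraries were taken as separate animals.

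Mice homozygous for sph have fragile, round red cells and a severe haemolytic anaemia. Macrophages of the spleen and liver take up damaged red cells, digest them in lysosomes, move heme into the cytosol and break it down with heme oxygenase into iron, carbon monoxide and biliverdin. The iron is stored in ferritin or exported through ferroportin. In the mouse, anaemia also drives red cell formation outside the marrow, in spleen and liver, where red cell precursors mature around a central macrophage in the erythroblastic island.

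Total counts ran from 15586731 to 18984067 over the 6 saline libraries, at which 3 counts equal 0.158 to 0.192 CPM (counts scaled to library size). On the first principal component of the saline libraries (47.2% of the variance) the WT libraries lay between -59.5 and -27.0 and the sph/sph libraries between 39.2 and 56.8. The next 2 components (25.6% and 12%) did not divide the genotypes. The macrophage marker Adgre1, which encodes F4/80, stood at 1811, 1579 and 1942 CPM in WT and 1907, 1429.9 and 1886 CPM in sph/sph, and the ranges overlapped. The 4 Y-linked genes Ddx3y, Eif2s3y, Kdm5d and Uty had 0 counts in library A of every group and were present in the other 8 libraries, although all mice were labelled male. The headings of both saline A libraries share a number and also a code that begins with SM. Those of both anti-CD40 A libraries share another number but no such code. No other heading shares a number or code between genotypes, and no label says what these stand for.

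Of the 13844 genes, 222 were higher in sph/sph (1.6% of those tested) and 60 were lower (0.433%) at a Benjamini-Hochberg adjusted p under 0.05 in edgeR's quasi-likelihood test; these genes are called, and are said below to rise or fall. At an unadjusted p under 0.05 there were 1114 genes higher and 703 lower. The rises were large: the median log2 fold among them was 2.82, and 77 of the 222 had a log2 fold of at least 4, whereas the median over all genes tested was 0.01. In 88 of the 222 the WT mean was under 1 CPM, so many rises started from almost no signal, and 85 had means of at least 10 CPM in both genotypes. The falls were fewer and smaller, with a median log2 fold of -1.94 and 28 of 60 with a size of at least 2. Every called gene had 3 sph/sph values on one side of the 3 WT values. Without the test, 4.79% of all genes were at least 2-fold higher and 2.98% at least 2-fold lower with no overlap. The share of all genes with no overlap at any fold was not counted. Counts of list members without overlap given below therefore have no like measure over all genes. The counts depend on single libraries: leaving out 1 saline library gave 61 to 135 genes higher and 12 to 20 lower, and leaving out sph/sph anti-CD40 C gave 383 and 156. In the fit without the 4 libraries that lack Y-linked counts, 13 genes were higher and 0 lower by edgeR (712 and 531 at an unadjusted p under 0.05), against 288 and 104 by DESeq2 and 4 and 0 by limma-voom. Of the called genes, 53 that rose and 10 that fell were called in all 12 fits that left out 1 library.

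**Figure D1:**
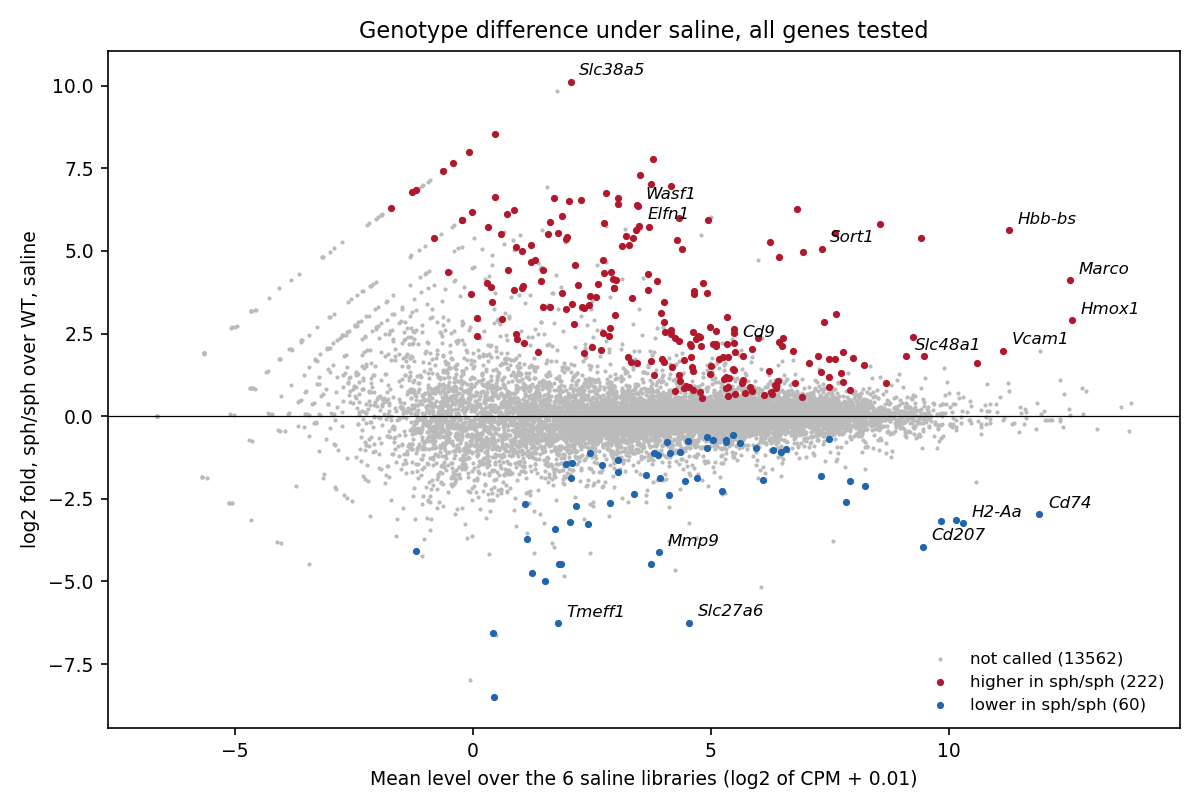
Each point is a gene, with its mean level over the 6 saline libraries (x axis, log2 of CPM + 0.01) and the log2 fold of sph/sph over WT under saline (y axis). The 222 genes higher in sph/sph are red and the 60 lower are blue; several of the most abundant genes, among them Marco, Hmox1 and Hbb-bs, lie among the red points, and Cd74 and Cd207 among the blue.

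The heme pathway held the transcript with the highest level per length, globins aside, of those that rose. Of 15 genes of heme breakdown, heme transport and red cell digestion 5 rose and none fell (Hmox1, Slc48a1, Por, Flvcr2 and Spic), with a median log2 fold of 0.36 against 0.01 over all genes. Hmox1, heme oxygenase 1 (ENSMUSG00000005413, chromosome 8, 75093621 to 75100589), stood at 1969, 1416 and 979 CPM in WT and 11528, 10344 and 10946 CPM in sph/sph. Hmox1 did not overlap between the genotypes and had a log2 fold of 2.91 ± 0.40 (SE; edgeR adjusted p = 0.00608). The WT libraries ranged widely among themselves, and the 3 sph/sph libraries lay close together far above them. Per kilobase of exon its level went from 831 to 6247 CPM. Without WT saline B its edgeR adjusted p was 0.0514, and 3 of the 15 genes were called. DESeq2 called 6 of the 15 higher and 1 lower, and the fit of only the groups compared also called 1 lower. Slc48a1, which carries heme out of the phagolysosome, stood at 267, 247 and 218 CPM in WT and 845, 740.3 and 995 CPM in sph/sph. Slc48a1 rose with a log2 fold of 1.82 ± 0.24 (SE; edgeR adjusted p = 0.0053) and a gap between the genotypes. Por, the reductase that supplies electrons to heme oxygenase, stood at 143, 105 and 98.1 CPM in WT and 412, 342 and 418 CPM in sph/sph. Por had each sph/sph library above each WT library and a log2 fold of 1.76 ± 0.23 (SE; edgeR adjusted p = 0.00507). Slc48a1 and Por were called in all 12 fits that left out 1 library. Flvcr2, a membrane transporter of the FLVCR family, was close to undetected in WT, with 2 counts over the 3 libraries, and reached 1.86, 2.61 and 2.79 CPM in sph/sph, a count ratio of 63.4 (95% counting interval 17.2 to 529).

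Other steps of the pathway did not pass the test. Hmox2, the constitutive heme oxygenase, stood at 238, 198 and 251 CPM in WT and 309, 214 and 309 CPM in sph/sph. Blvrb, a biliverdin reductase, stood at 312, 258 and 260.2 CPM in WT and 389, 368 and 509 CPM in sph/sph. Blvrb did not overlap between the genotypes and did not pass the test, with a log2 fold of 0.61 ± 0.31 (SE; edgeR adjusted p = 0.452). Lrp1, the receptor for hemopexin-bound heme, stood at 2605 to 3016 CPM in WT and 2848 to 3362 CPM in sph/sph. Cd163, which takes up haptoglobin with its bound haemoglobin, stood at 1891, 2283 and 3122 CPM in WT and 412, 682 and 748 CPM in sph/sph. Cd163 did not overlap between the genotypes and did not pass the test, with a log2 fold of -1.99 ± 0.56 (SE; edgeR adjusted p = 0.122).

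Of 20 genes of iron uptake, storage and export 1 rose and none fell (median log2 fold 0.25). It was Tfrc, the transferrin receptor, at 29.7, 33.2 and 38.5 CPM in WT and 121, 223 and 97.6 CPM in sph/sph. Tfrc was higher in every sph/sph library, with a log2 fold of 2.12 ± 0.36 (SE; edgeR adjusted p = 0.0169). Red cell precursors also carry this receptor, and its level was highest in sph/sph B, as was that of most erythroid genes given further on; its origin was not tested. Without WT saline A, B or C it was not called (edgeR adjusted p up to 0.0914). The ferritin heavy chain Fth1 stood at 1706, 1448 and 1522 CPM in WT and 6363, 4844 and 7301 CPM in sph/sph. Fth1 did not overlap between the genotypes and did not pass the test, with a log2 fold of 1.98 ± 0.50 (SE; edgeR adjusted p = 0.079). The light chain Ftl1 stood at 5629, 4594 and 5057 CPM in WT and 8727, 7294 and 11640.5 CPM in sph/sph. Ftl1 did not overlap between the genotypes and did not pass the test, with a log2 fold of 0.86 ± 0.37 (SE; edgeR adjusted p = 0.354). Reads of Fth1 and Ftl1 may be shared with processed copies elsewhere in the genome, so their levels are uncertain. Slc40a1, ferroportin, overlapped between the genotypes, at 6332, 4670.1 and 6959 CPM in WT and 6049.9, 4825 and 7377 CPM in sph/sph (log2 fold 0.02 ± 0.35 SE).

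Genes of red pulp macrophages of the spleen and of erythroblastic island macrophages were examined as a list of 18, of which 5 rose and none fell (median log2 fold 0.36): Spic, Vcam1, Itgad, Hmox1 and Klf1. Spic, a transcription factor needed for red pulp macrophages, stood at 93.6, 68 and 110.3 CPM in WT and 367, 287 and 389 CPM in sph/sph. Spic did not overlap between the genotypes and had a log2 fold of 1.94 ± 0.40 (SE; edgeR adjusted p = 0.0353). Vcam1, an adhesion molecule by which island macrophages hold erythroblasts, stood at 814, 969 and 969 CPM in WT and 3931, 2358 and 4599.7 CPM in sph/sph. Vcam1 rose with a log2 fold of 1.98 ± 0.31 (SE; edgeR adjusted p = 0.00967) and a gap between the genotypes. For Spic and Vcam1 sph/sph B was the lowest of its group. Itgad, the integrin alpha-D chain typical of red pulp macrophages, went from 0, 0.165 and 0.111 CPM in WT to 7.05, 2.97 and 7.97 CPM in sph/sph. Itgad had each sph/sph library above each WT library and a log2 fold of 5.88 ± 1.18 (SE; edgeR adjusted p = 0.0333). Klf1 is also a defining factor of red cell precursors, and its values stand with that list below. Treml4, at 384 to 575 CPM in WT and 550.5 to 643 CPM in sph/sph, and Adgre1 did not pass the test. The list was not of one direction: 14 of the 18 had a positive log2 fold and 4 a negative one. In 8 each sph/sph library lay above each WT library, and in 2 each lay below, without a like count over all genes. Cd163, whose levels are given above, is on this list too and had its lowest log2 fold (-1.99), without passing the test. Without WT saline B none of the 18 was called, and without WT saline C 1 was. DESeq2 called 7 of the 18 higher and 1 lower, and the fit of only the groups compared also called 1 lower. Spic lost its call without any 1 of the 6 saline libraries.

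**Figure D2:**
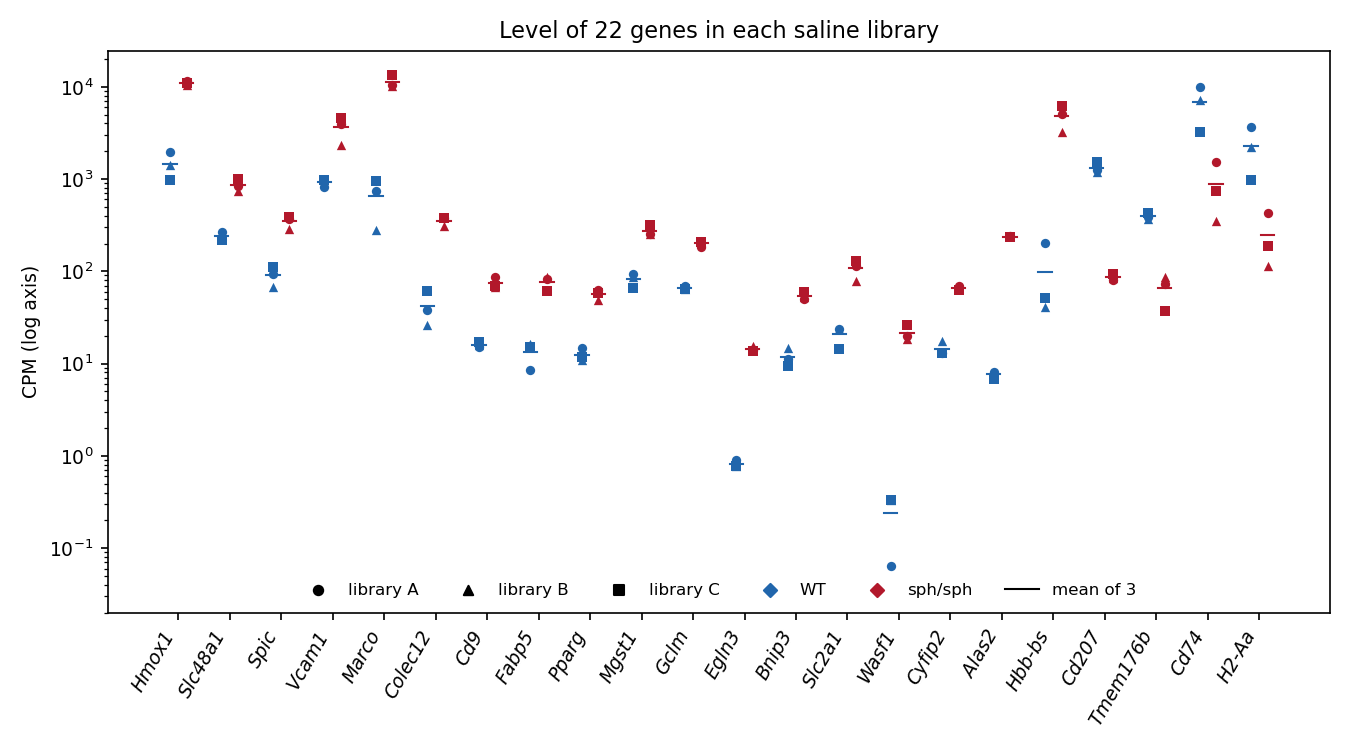
Level in CPM (log axis) of 22 genes in each of the 3 WT (blue) and 3 sph/sph (red) saline libraries, with circles, triangles and squares for libraries A, B and C and a line at the mean. The red and blue symbols do not overlap in any of the 22 genes, Wasf1 and Egln3 start below 1 CPM in WT, and Cd74 and H2-Aa spread over a wide range within both genotypes.

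NRF2 is the transcription factor of the antioxidant response, and its targets supply glutathione, NADPH and detoxifying enzymes. Of 30 target genes 5 rose and none fell, 28 had a positive log2 fold, and the median was 0.64. Mgst1, the microsomal glutathione transferase, stood at 94.1, 86.9 and 65.4 CPM in WT and 255, 254 and 316 CPM in sph/sph. Mgst1 was higher in every sph/sph library, with a log2 fold of 1.74 ± 0.18 (SE; edgeR adjusted p = 0.00282). Gclm, the regulatory subunit of the enzyme that starts glutathione synthesis, stood at 69.9, 64.2 and 64.2 CPM in WT and 181, 214 and 206 CPM in sph/sph. Gclm did not overlap between the genotypes and had a log2 fold of 1.6 ± 0.28 (SE; edgeR adjusted p = 0.0171). Gclc, its catalytic subunit, stood at 58.7, 59.1 and 60.8 CPM in WT and 92.6, 101 and 92.2 CPM in sph/sph. Gclc rose with a log2 fold of 0.68 ± 0.14 (SE; edgeR adjusted p = 0.0353) and a gap between the genotypes. For these 3 genes the values within a genotype lay close together, and the fold of Gclc was the smallest. Me1, the NADPH-forming malic enzyme, went from 7.58, 10.1 and 3.88 CPM in WT to 35.2, 44.9 and 47.2 CPM in sph/sph. Me1 had each sph/sph library above each WT library and a log2 fold of 2.56 ± 0.45 (SE; edgeR adjusted p = 0.0194). Gstm1, a cytosolic glutathione transferase, went from 76.7, 137 and 57.6 CPM in WT to 239.9, 268 and 394 CPM in sph/sph. Gstm1 was higher in every sph/sph library, with a log2 fold of 1.73 ± 0.31 (SE; edgeR adjusted p = 0.0219). Among abundant members that did not pass, Prdx1, a peroxiredoxin, stood at 594 to 707 CPM in WT and 1035 to 1679 CPM in sph/sph. Cat, catalase, stood at 305 to 446 CPM in WT and 572 to 814 CPM in sph/sph. Both lay higher in each sph/sph library, with an edgeR adjusted p of 0.334 and 0.262. Mgst1 kept its call in all 12 fits leaving out 1 library, whereas the count of 5 fell to 1 without WT saline A, WT saline C, sph/sph saline B or sph/sph saline C. DESeq2 called 10 of the 30 higher and 1 lower, and the fit of only the groups compared called 12 and 1. Without the 4 libraries that lack Y-linked counts 0 were called higher.

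The antioxidant response element is the DNA site of NRF2, and its core is TGACNNNGC. RefSeq promoter windows (GRCm38.p6, 250 bases before to 50 after a transcription start) were at hand for 10547 of the genes tested, and 16.9% held this core on either strand. Of the 5 NRF2 targets that rose 4 had a window, and 3 of these, Gclm, Mgst1 and Me1, held it, against 11 of 27 in the whole list (40.7%) and 18.8% of all genes that rose. The letters ACGTG, used below for the hypoxia genes, were in as many of these 4 windows (3: Gclm, Gstm1 and Me1). They were in 7 of 27 in the whole NRF2 list (25.9%) and in 28.4% of all windows. The 3 motifs searched in this report were chosen for the lists that rose. A match describes letters only and is no measure of binding. Of the Gclm promoter (chr3:122245307-122245556, plus strand) and the Mgst1 promoter (chr6:138140277-138140526, plus strand), shown because both genes rose and both hold the core, the 250 bases before the start read 5′ to 3′ as follows, with the core or its reverse complement in capitals.
Gclm: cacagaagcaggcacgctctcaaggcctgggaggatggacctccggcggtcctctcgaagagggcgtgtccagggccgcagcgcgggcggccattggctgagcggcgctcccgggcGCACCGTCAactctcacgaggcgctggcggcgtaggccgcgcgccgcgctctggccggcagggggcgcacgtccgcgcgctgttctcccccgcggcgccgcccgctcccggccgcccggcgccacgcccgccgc
Mgst1: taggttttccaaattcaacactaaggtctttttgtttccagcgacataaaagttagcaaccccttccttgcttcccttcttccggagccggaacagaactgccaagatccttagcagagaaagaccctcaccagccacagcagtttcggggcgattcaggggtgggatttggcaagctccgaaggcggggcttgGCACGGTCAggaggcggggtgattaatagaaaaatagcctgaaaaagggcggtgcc

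Genes of the response to low oxygen, which HIF controls, and transporters of glucose and lactate were also among those that rose. Of 25 hypoxia response genes 5 rose and none fell (median log2 fold 0.50). Egln3, a prolyl hydroxylase that marks HIF for degradation and is itself a HIF target, went from 0.9, 0.769 and 0.776 CPM in WT to 14.1, 15.7 and 13.6 CPM in sph/sph. Egln3 did not overlap between the genotypes and had a log2 fold of 4.14 ± 0.31 (SE; edgeR adjusted p = 0.000191). Its values within each genotype differed little, and it stayed called in every fit run. Bnip3, a mitophagy receptor, went from 11.3, 14.7 and 9.48 CPM in WT to 50.5, 52.4 and 59.9 CPM in sph/sph. Bnip3 rose with a log2 fold of 2.20 ± 0.25 (SE; edgeR adjusted p = 0.00324) and a gap between the genotypes. Ankrd37, a known HIF target, went from 0.514, 0.989 and 0.887 CPM in WT to 7.78, 4.33 and 18.2 CPM in sph/sph. Ankrd37 had each sph/sph library above each WT library and a log2 fold of 3.65 ± 0.50 (SE; edgeR adjusted p = 0.00608). Pdk1, which limits pyruvate entry into mitochondria, changed less, at 31.3, 34.3 and 33.7 CPM in WT and 67.2, 73 and 61.6 CPM in sph/sph. Pdk1 was higher in every sph/sph library, with a log2 fold of 1.02 ± 0.20 (SE; edgeR adjusted p = 0.0309). Mt2, a metallothionein, went from 8.23, 12.4 and 9.25 CPM in WT to 77.9, 65.8 and 34 CPM in sph/sph. Mt2 did not overlap between the genotypes and had a log2 fold of 2.57 ± 0.49 (SE; edgeR adjusted p = 0.0265). The count of 5 was 3 by limma-voom and without any 1 WT saline library, sph/sph saline A or sph/sph saline B, and 1 without the 4 libraries that lack Y-linked counts. Pdk1 lost its call without any 1 saline library, and Mt2 without any 1 of them but sph/sph saline C. Mt1, the partner of Mt2, stood at 47 to 70.5 CPM in WT and 115 to 158 CPM in sph/sph. Mt1 did not overlap between the genotypes and did not pass the test, with a log2 fold of 1.12 ± 0.36 (SE; edgeR adjusted p = 0.17).

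Of 21 genes of glycolysis and lactate transport 3 rose and none fell, and the median log2 fold was 1.24, with 19 of 21 positive. The 3 were transporters. Slc2a1, the glucose transporter GLUT1, stood at 23.9, 23.6 and 14.5 CPM in WT and 114, 78.9 and 129 CPM in sph/sph. Slc2a1 rose with a log2 fold of 2.38 ± 0.43 (SE; edgeR adjusted p = 0.0215) and a gap between the genotypes. Slc16a1, the lactate transporter MCT1, stood at 3.6, 3.57 and 4.49 CPM in WT and 24.3, 41.4 and 19.4 CPM in sph/sph. Slc16a1 had each sph/sph library above each WT library and a log2 fold of 2.87 ± 0.32 (SE; edgeR adjusted p = 0.00324). Slc16a3, the lactate exporter MCT4, stood at 13.8, 12.9 and 10.8 CPM in WT and 79, 64.8 and 87.4 CPM in sph/sph. Slc16a3 was higher in every sph/sph library, with a log2 fold of 2.63 ± 0.57 (SE; edgeR adjusted p = 0.0459). Abundant glycolytic enzymes had smaller folds and did not pass. Aldoa, aldolase A, stood at 482 to 559.7 CPM in WT and 1227 to 1609 CPM in sph/sph. Pkm, pyruvate kinase, stood at 401 to 534 CPM in WT and 943 to 1086 CPM in sph/sph. Ldha, lactate dehydrogenase, stood at 270.2 to 345 CPM in WT and 509 to 676 CPM in sph/sph. None of the 3 overlapped between the genotypes, and their edgeR adjusted p-values were 0.101, 0.222 and 0.297. The count depended on the libraries in the fit and on the tool. Without sph/sph anti-CD40 C 14 of the 21 were called higher, and 14 were in the fit of only the groups compared. DESeq2 called 8 and limma-voom 3. Without any 1 saline library 1 or 2 were called, and 0 were without the 4 libraries that lack Y-linked counts. Of 25 nuclear genes of the respiratory chain 24 had a positive log2 fold, but the median was 0.30 and 0 were called by edgeR, DESeq2 or limma-voom (1 at an unadjusted p under 0.05).

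The core of the HIF site is ACGTG, and 28.4% of the promoter windows held it on either strand. It was in the windows of 3 of the 5 hypoxia response genes that rose (Ankrd37, Bnip3 and Egln3) and of all 3 transporters, against 14 of 19 in the hypoxia list (73.7%), 14 of 21 in the glycolysis list (66.7%) and 30.3% of all genes that rose. The matches lie 36 bases before the start in Slc2a1, 27 and 14 bases before it in Slc16a3, and 241 and 6 bases before it in Ankrd37. In Bnip3 the letters read as a match on both strands, 108 and 107 bases before the start. The stretches before the start are shown for a transporter of each substrate and for Bnip3 (Slc2a1 chr4:119108495-119108744, plus strand, Slc16a3 chr11:120948817-120949066, plus strand, Bnip3 chr7:138909507-138909756, minus strand), with the core or its reverse complement in capitals.
Slc2a1: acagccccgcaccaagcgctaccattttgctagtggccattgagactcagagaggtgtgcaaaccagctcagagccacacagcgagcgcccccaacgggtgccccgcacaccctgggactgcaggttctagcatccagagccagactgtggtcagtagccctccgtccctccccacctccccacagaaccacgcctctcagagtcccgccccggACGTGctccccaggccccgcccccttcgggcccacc
Slc16a3: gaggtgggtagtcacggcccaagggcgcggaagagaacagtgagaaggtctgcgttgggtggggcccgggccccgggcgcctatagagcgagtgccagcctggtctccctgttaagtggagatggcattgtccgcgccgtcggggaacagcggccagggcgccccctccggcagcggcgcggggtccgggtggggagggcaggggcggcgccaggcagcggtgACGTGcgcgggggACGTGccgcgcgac
Bnip3: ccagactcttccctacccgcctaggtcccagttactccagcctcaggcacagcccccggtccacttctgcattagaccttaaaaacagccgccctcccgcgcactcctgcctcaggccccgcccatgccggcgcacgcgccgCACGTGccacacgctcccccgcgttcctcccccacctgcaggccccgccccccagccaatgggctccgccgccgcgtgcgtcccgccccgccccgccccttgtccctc

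Lipid handling, lysosomal and surface genes gave a mixed picture. Of 29 genes of lipid-handling macrophages 4 rose and none fell, with a list median of 0.01, equal to that of all genes. Cd9, a tetraspanin, had the smallest p-value of the comparison, at 15.1, 15.7 and 17 CPM in WT and 85.7, 66.7 and 70.0 CPM in sph/sph. Cd9 did not overlap between the genotypes and had a log2 fold of 2.22 ± 0.12 (SE; edgeR adjusted p = 4.21e-05). Pparg, a nuclear receptor of lipid metabolism, stood at 14.7, 11 and 11.7 CPM in WT and 62.8, 49.2 and 58 CPM in sph/sph. Pparg rose with a log2 fold of 2.18 ± 0.27 (SE; edgeR adjusted p = 0.00478) and a gap between the genotypes. Fabp5, a fatty acid carrier, stood at 8.42, 16.5 and 15 CPM in WT and 81.7, 86.4 and 60.8 CPM in sph/sph. Fabp5 had each sph/sph library above each WT library and a log2 fold of 2.52 ± 0.29 (SE; edgeR adjusted p = 0.00356). Cd9, Pparg and Fabp5 were called in all 12 fits leaving out 1 library. Lpl, lipoprotein lipase, rose 3.03-fold from a high level, at 897, 816 and 605 CPM in WT and 2367, 2262 and 2396 CPM in sph/sph. Lpl was higher in every sph/sph library, with a log2 fold of 1.6 ± 0.33 (SE; edgeR adjusted p = 0.0354). It lost its call without any 1 of the 6 saline libraries. Apoe, the lipoprotein component, stood at 13219 to 18190.0 CPM in WT and 10659.7 to 14444 CPM in sph/sph and overlapped between the genotypes.

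Of 37 lysosomal genes 3 rose and none fell (median log2 fold 0.28): Gla, alpha-galactosidase A (1.79), Cd63, a tetraspanin of late endosomes (2.41), and Gpnmb, a glycoprotein of lipid-laden macrophages (3.12). Each of these lost its call without any 1 saline library. Abundant lysosomal proteases did not pass the test. Ctsb, cathepsin B, stood at 10994 to 15399 CPM in WT and 13531 to 19140.3 CPM in sph/sph and overlapped. Ctsd, cathepsin D, stood at 2731 to 4413 CPM in WT and 5282 to 8549 CPM in sph/sph, without overlap (edgeR adjusted p = 0.12). Pld3, a lysosomal nuclease that was on no list, stood at 342, 302 and 310.3 CPM in WT and 1038, 925 and 1398 CPM in sph/sph. Pld3 did not overlap between the genotypes and had a log2 fold of 1.82 ± 0.22 (SE; edgeR adjusted p = 0.00456). Of 23 cholesterol synthesis genes 1 rose, Sqle, squalene epoxidase, at 2.57, 1.87 and 1.99 CPM in WT and 5.85, 14.8 and 6.69 CPM in sph/sph. Sqle rose with a log2 fold of 2.09 ± 0.43 (SE; edgeR adjusted p = 0.0354) and a gap between the genotypes. Of 24 genes of the integrated stress response 1 rose, Asns, asparagine synthetase, at 0.707, 0.604 and 0.887 CPM in WT and 5.85, 12.5 and 2.5 CPM in sph/sph. Asns had each sph/sph library above each WT library and a log2 fold of 3.23 ± 0.63 (SE; edgeR adjusted p = 0.0296). Sqle and Asns were highest in sph/sph B, and both lost their calls without any 1 WT saline library.

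Among receptors for particles, 2 of 39 scavenger and uptake genes rose and none fell (median log2 fold -0.12). Marco, a scavenger receptor for bacteria and modified lipoproteins, stood at 742, 279 and 941 CPM in WT and 10355, 10303 and 13321 CPM in sph/sph. Marco was higher in every sph/sph library, with a log2 fold of 4.11 ± 0.63 (SE; edgeR adjusted p = 0.00955). Its mean level per kilobase of exon went from 339.7 to 5884 CPM, close to that of Hmox1 in sph/sph. Colec12, a scavenger receptor with a collagen-like stalk and a lectin domain, stood at 37.8, 25.9 and 61.2 CPM in WT and 374, 310.4 and 377 CPM in sph/sph. Colec12 did not overlap between the genotypes and had a log2 fold of 3.09 ± 0.32 (SE; edgeR adjusted p = 0.00282). Marco and Colec12 were called in all 12 fits leaving out 1 library. Clec4n, the lectin Dectin-2, which was on no list, stood at 176, 166 and 242 CPM in WT and 910.4, 775 and 1389 CPM in sph/sph. Clec4n rose with a log2 fold of 2.40 ± 0.39 (SE; edgeR adjusted p = 0.0127) and a gap between the genotypes. The complement genes C1qa, C1qb and C1qc differed by a log2 fold of -0.12, -0.10 and -0.11, and none passed.

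The list for Kupffer cells, which line the sinusoids of the liver as its resident macrophages, held few called genes. Of 29, 3 rose, Marco, Spic and Gfra2, none fell, and the median log2 fold was -0.10. Gfra2, a receptor of the GDNF family, stood at 92.1, 61.2 and 116 CPM in WT and 234, 208 and 240.3 CPM in sph/sph. Gfra2 had each sph/sph library above each WT library and a log2 fold of 1.34 ± 0.26 (SE; edgeR adjusted p = 0.0264). The count of 3 was 1 without WT saline A, WT saline B or any 1 sph/sph saline library. Members were called lower by DESeq2 (1), by limma-voom (2), in the fit of only the groups compared (3) and without WT anti-CD40 A (2). Clec4f stood at 10361, 9764 and 9962 CPM in WT and 7466, 5989 and 9634 CPM in sph/sph, with each sph/sph library below WT and a log2 fold of -0.38 ± 0.55 (SE; edgeR adjusted p = 0.825). Vsig4, a complement receptor, stood at 2926 to 3629.6 CPM in WT and 2651 to 3579.6 CPM in sph/sph and overlapped. Of the 29 members 18 had a negative log2 fold and 11 a positive one. In 9 members each sph/sph library lay below each WT library, and in 4 each lay above, without a like count over all genes. Summed over the list, WT libraries held 44835 to 52678 CPM and sph/sph libraries 50976 to 72232 CPM, so the ranges overlapped. The mean of these sums was 49623 CPM for WT and 61577 CPM for sph/sph. Marco is part of the sum, and its own mean was 654 CPM for WT and 11326 CPM for sph/sph.

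Several of the steepest and most reproducible rises were of genes on no list; 158 of the 222 were on none. Wasf1 encodes WAVE1, which promotes branching of actin, and Cyfip2 a subunit of the same WAVE regulatory complex. Wasf1 went from 0.0643, 0.33 and 0.332 CPM in WT to 19.7, 18.6 and 26.1 CPM in sph/sph. Wasf1 was higher in every sph/sph library, with a log2 fold of 6.40 ± 0.46 (SE; edgeR adjusted p = 0.000191). Cyfip2 went from 12.9, 17.7 and 13.1 CPM in WT to 70.0, 66.2 and 63.3 CPM in sph/sph. Cyfip2 did not overlap between the genotypes and had a log2 fold of 2.19 ± 0.21 (SE; edgeR adjusted p = 0.0017). The 3 sph/sph values of each lay close together. Elfn1, a leucine-rich repeat protein known from synapses, went from 0.193, 0.604 and 0.388 CPM in WT to 22.2, 24.7 and 19.5 CPM in sph/sph. Elfn1 rose with a log2 fold of 5.77 ± 0.42 (SE; edgeR adjusted p = 0.000191) and a gap between the genotypes. Sort1, the sorting receptor sortilin, went from 2.96, 13.2 and 11.6 CPM in WT to 292, 283 and 362 CPM in sph/sph. Sort1 had each sph/sph library above each WT library and a log2 fold of 5.07 ± 0.53 (SE; edgeR adjusted p = 0.00282). Il21r, the receptor for interleukin-21, went from 3.98, 1.32 and 2.83 CPM in WT to 34.1, 22.9 and 32.3 CPM in sph/sph. Il21r was higher in every sph/sph library, with a log2 fold of 3.46 ± 0.35 (SE; edgeR adjusted p = 0.00282). These 5 genes were called in all 12 fits leaving out 1 library. Sept9, a septin of the cytoskeleton, stood at 120.1, 114 and 130.4 CPM in WT and 306, 309 and 294 CPM in sph/sph, and Nat8l, which makes N-acetylaspartate, at 7.26, 6.92 and 10.8 CPM in WT and 41.9, 40.5 and 51.7 CPM in sph/sph. Galnt12, an enzyme of O-linked glycosylation, went from 0.45, 0.989 and 1.22 CPM in WT to 6.78, 7.12 and 12.9 CPM in sph/sph. Lrrc14b went from 0.193, 0.11 and 0.111 CPM in WT to 27.9, 19.6 and 20.2 CPM in sph/sph. Lrrc14b did not overlap between the genotypes and had a log2 fold of 7.30 ± 1.03 (SE; edgeR adjusted p = 0.00665). Apol11b, of the apolipoprotein L family, went from 0.514, 0 and 0.111 CPM in WT to 25.9, 30.2 and 23.7 CPM in sph/sph. Apol11b rose with a log2 fold of 7.02 ± 0.94 (SE; edgeR adjusted p = 0.00573) and a gap between the genotypes.

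**Figure D3:**
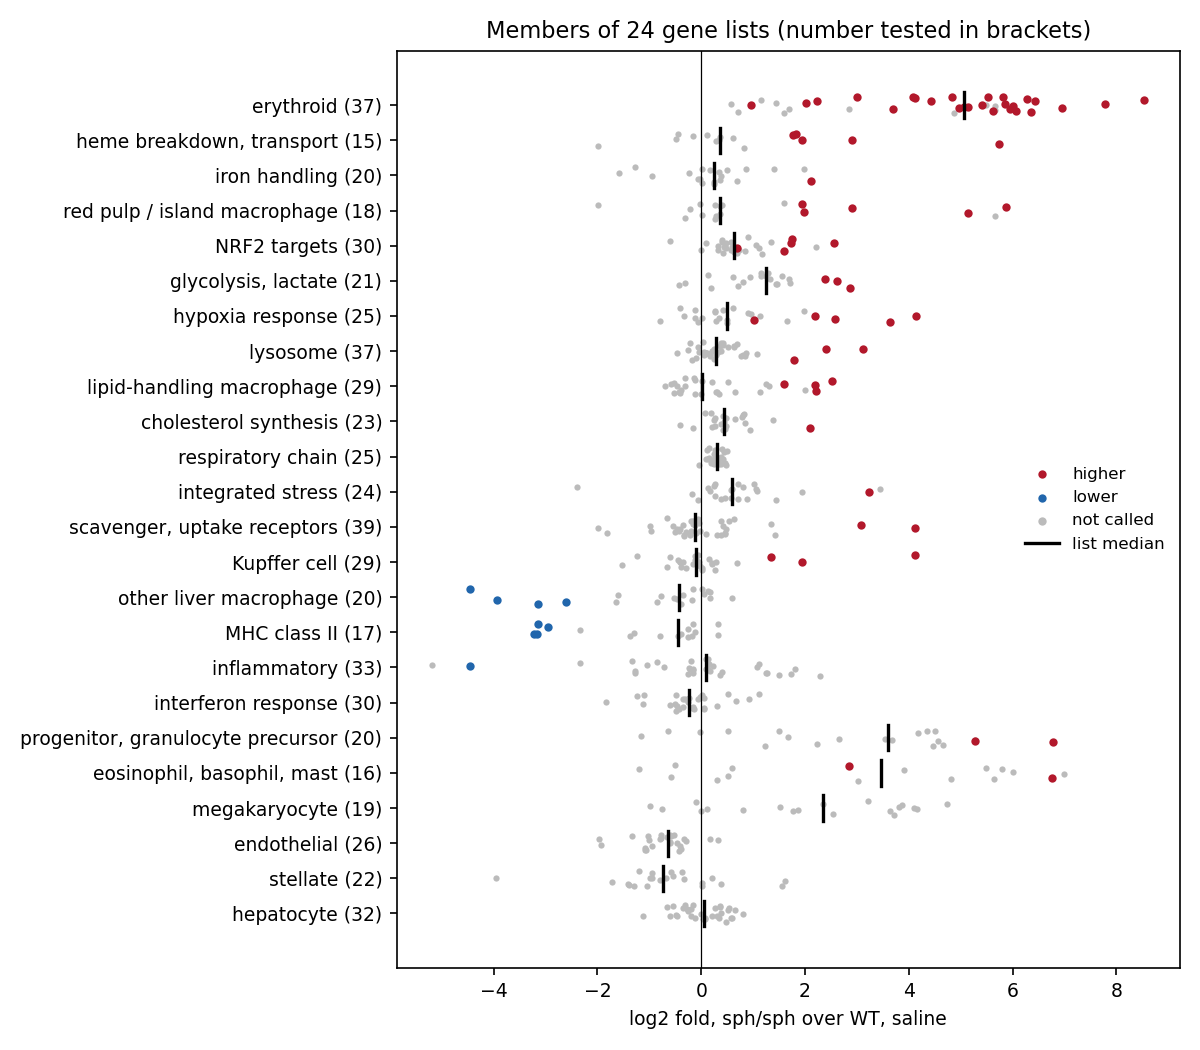
Each row is a gene list and each point a tested member at its log2 fold of sph/sph over WT under saline, red if higher, blue if lower and grey if not called, with a black line at the list's median. The erythroid list has 26 red points and a median of 5.07, the lists from heme breakdown down to integrated stress have medians between 0.01 and 1.24 with 0 to 5 red points each, and the 4 called MHC class II genes lie near -3.

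Of the 60 genes that fell 51 were on no list, and the other 9 included 4 genes of antigen presentation. Of 17 MHC class II genes, which present peptides to helper T cells, 4 fell and none rose (median log2 fold -0.45). Cd74, the invariant chain, stood at 10041, 7154 and 3259 CPM in WT and 1535, 349 and 749.8 CPM in sph/sph. Cd74 had each sph/sph library below each WT library and a log2 fold of -2.96 ± 0.63 (SE; edgeR adjusted p = 0.0404). H2-Ab1 stood at 3200.5, 2051 and 877 CPM in WT and 396, 98.4 and 199 CPM in sph/sph. H2-Ab1 was lower in every sph/sph library, with a log2 fold of -3.14 ± 0.63 (SE; edgeR adjusted p = 0.0334). H2-Eb1 stood at 2660.2, 1643 and 666 CPM in WT and 330.5, 88.9 and 137 CPM in sph/sph. H2-Eb1 did not overlap between the genotypes and had a log2 fold of -3.16 ± 0.67 (SE; edgeR adjusted p = 0.0422). H2-Aa stood at 3691, 2217 and 978 CPM in WT and 431, 113 and 189.8 CPM in sph/sph. H2-Aa fell with a log2 fold of -3.23 ± 0.64 (SE; edgeR adjusted p = 0.0328) and a gap between the genotypes. In each of these genes WT library A was the highest and WT library C the lowest of its group, and even the lowest WT library lay above the highest sph/sph library. H2-DMa, which helps to load peptides, stood at 208 to 359 CPM in WT and 76.7 to 139 CPM in sph/sph, without overlap, and did not pass (edgeR adjusted p = 0.205). None of the 4 was called without WT saline A, WT saline B, sph/sph saline B or sph/sph saline C. Markers of dendritic cells, which are rich in MHC class II, had a median log2 fold of -0.01 over 24 genes, with summed levels of 826 to 896 CPM in WT and 768 to 919 CPM in sph/sph; 0 were called by edgeR, DESeq2 or limma-voom, and 3 had an unadjusted p under 0.05. Their part in the MHC class II difference was not tested.

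Of 20 genes of liver macrophages other than Kupffer cells (capsular, monocyte-derived and other) 4 fell and none rose (median log2 fold -0.43). The log2 fold was negative in 14 and positive in 6. In 6 of the 20 each sph/sph library lay below each WT library, in 1 each lay above, and the others overlapped. No like count over all genes was made. Cd207, the lectin langerin, was the clearest, at 1242, 1184 and 1546 CPM in WT and 79.9, 85.5 and 92.8 CPM in sph/sph. Cd207 had each sph/sph library below each WT library and a log2 fold of -3.94 ± 0.55 (SE; edgeR adjusted p = 0.00641). Cxcl14, a chemokine, stood at 23.1, 19.7 and 33.7 CPM in WT and 2.0, 1.01 and 0.465 CPM in sph/sph. Cxcl14 was lower in every sph/sph library, with a log2 fold of -4.46 ± 0.64 (SE; edgeR adjusted p = 0.00681). Tmem176b, a membrane protein of immature antigen-presenting cells, stood at 389.6, 369 and 425 CPM in WT and 72.1, 86 and 37.1 CPM in sph/sph. Tmem176b did not overlap between the genotypes and had a log2 fold of -2.60 ± 0.32 (SE; edgeR adjusted p = 0.00478). H2-Ab1 was the fourth. In Cd207 and Tmem176b each genotype was tight and the gap between them wide. Adamdec1 and Psd4 also fell but are not on this list. Adamdec1, a protease of macrophages, stood at 387, 323 and 446 CPM in WT and 95.1, 91.5 and 109 CPM in sph/sph. Adamdec1 fell with a log2 fold of -1.97 ± 0.28 (SE; edgeR adjusted p = 0.00665) and a gap between the genotypes. Psd4, an exchange factor for the small GTPase Arf6, stood at 109.9, 86.9 and 129 CPM in WT and 29.7, 28.7 and 27.1 CPM in sph/sph. Psd4 had each sph/sph library below each WT library and a log2 fold of -1.93 ± 0.26 (SE; edgeR adjusted p = 0.00552). Cd207, Cxcl14, Tmem176b, Adamdec1 and Psd4 were called in all 12 fits leaving out 1 library.

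Several genes at lower levels also fell. Slc27a6, a fatty acid transport protein, went from 34.3, 32.7 and 70.9 CPM in WT to 0.2, 0.356 and 1.22 CPM in sph/sph. Slc27a6 was lower in every sph/sph library, with a log2 fold of -6.24 ± 0.90 (SE; edgeR adjusted p = 0.00729). Mmp9, a matrix protease also stored in neutrophil granules, went from 33.7, 31.2 and 20.1 CPM in WT to 1.8, 2.61 and 0.524 CPM in sph/sph. Mmp9 did not overlap between the genotypes and had a log2 fold of -4.10 ± 0.62 (SE; edgeR adjusted p = 0.00929). The neutrophil list of 22, to which it belongs, had no other called gene and a median log2 fold of 0.40. Gpm6b, a membrane proteolipid, went from 28.2, 32 and 27 CPM in WT to 4.39, 4.04 and 8.32 CPM in sph/sph. Gpm6b fell with a log2 fold of -2.38 ± 0.30 (SE; edgeR adjusted p = 0.00507) and a gap between the genotypes. Tmeff1 (-6.25), Dscaml1 (-4.99), Cntfr, a receptor chain for ciliary neurotrophic factor (-4.46), and Adgrl3, an adhesion receptor (-3.40), were low in WT already (Tmeff1 5.93 to 7.45 CPM, Dscaml1 2.27 to 9.13 CPM) and lay at or under 0.998 CPM in every sph/sph library. Fosb, an immediate-early factor, was the 1 of 32 early response genes called, at 11.9, 10.7 and 15.3 CPM in WT and 5.39, 2.55 and 3.78 CPM in sph/sph. Fosb had each sph/sph library below each WT library and a log2 fold of -1.69 ± 0.34 (SE; edgeR adjusted p = 0.0348). It was not called without any 1 WT saline library, sph/sph saline B or C, or WT anti-CD40 C. Of 33 inflammatory cytokine and chemokine genes Cxcl14 alone was called (list median 0.10), and of 30 interferon-stimulated genes 0 were called by edgeR, DESeq2 or limma-voom (1 lower at an unadjusted p under 0.05; median -0.24).

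Red cell precursor genes formed the list with the most called members. Of 37 erythroid genes tested, of 40 in the list, 26 rose, none fell and all 37 had a positive log2 fold (median 5.07), and the summed level ran over 383 to 609.7 CPM in WT and 7829.8 to 10329.8 CPM in sph/sph. The haemoglobin genes carried most of this sum: Hbb-bs, an adult beta chain, went from 202, 40.7 and 50.8 CPM in WT to 5046, 3215 and 6219 CPM in sph/sph. Hbb-bs was higher in every sph/sph library, with a log2 fold of 5.62 ± 1.00 (SE; edgeR adjusted p = 0.0209). Hba-a1, an alpha chain, went from 64.3, 14.7 and 15.7 CPM in WT to 1647, 811 and 1555 CPM in sph/sph. Hba-a1 did not overlap between the genotypes and had a log2 fold of 5.41 ± 0.98 (SE; edgeR adjusted p = 0.0221). Together the haemoglobin genes took 0.497% to 0.817% of counts in sph/sph and at most 0.0308% in WT. Hba-a1 and Hba-a2 are near-identical copies, as are Hbb-bs and Hbb-bt, so how reads were split between copies is uncertain. Among the sph/sph libraries all 4 were lowest in B.

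The other erythroid genes had a different order. Membrane proteins of the red cell were led by Kel, a blood group protease, at 0.257, 0 and 0.111 CPM in WT and 15.2, 54.6 and 12.3 CPM in sph/sph. Kel rose with a log2 fold of 7.78 ± 1.04 (SE; edgeR adjusted p = 0.00573) and a gap between the genotypes. Slc4a1, the anion exchanger band 3, went from 7.71, 0.44 and 0.554 CPM in WT to 145, 391 and 132 CPM in sph/sph. Slc4a1 had each sph/sph library above each WT library and a log2 fold of 6.28 ± 1.30 (SE; edgeR adjusted p = 0.0378). Sptb, the beta chain of spectrin, went from 1.74, 0.385 and 0.831 CPM in WT to 39.4, 116 and 24.6 CPM in sph/sph. Sptb was higher in every sph/sph library, with a log2 fold of 5.94 ± 0.81 (SE; edgeR adjusted p = 0.00608). Ank1, the ankyrin that links band 3 to spectrin, went from 3.98, 2.97 and 3.71 CPM in WT to 28.1, 90.2 and 20.7 CPM in sph/sph. Ank1 did not overlap between the genotypes and had a log2 fold of 3.70 ± 0.57 (SE; edgeR adjusted p = 0.0103). For Kel, Slc4a1, Sptb and Ank1 library B was the highest of the sph/sph libraries. The transcription factors Gata1 (9.24, 25.1 and 5.06 CPM in sph/sph), Klf1 (11.1, 32 and 8.26 CPM) and Hemgn (23.5, 67.4 and 15.6 CPM) showed the same order. WT library A, the highest WT library in the globins, was also the highest in these 3 factors, at 0.643, 1.03 and 0.707 CPM. Among enzymes of heme synthesis Alas2, the first in red cell precursors, stood at 8.1, 7.86 and 6.87 CPM in WT and 239, 238 and 235 CPM in sph/sph. Alas2 rose with a log2 fold of 4.96 ± 0.55 (SE; edgeR adjusted p = 0.00324) and a gap between the genotypes. Fech, the last enzyme, rose too (log2 fold 0.95 ± 0.17 SE), whereas Alad (1.15) and Urod (0.72) did not pass. Alas2 differed little between the 3 sph/sph libraries, and so did Bpgm, which makes the haemoglobin effector bisphosphoglycerate, at 73.9, 68.5 and 74 CPM. Slc38a5, a glutamine transporter outside the list, had 0 counts in WT and 4.39, 16.8 and 3.72 CPM in sph/sph, at least 145-fold higher against a floor of 3 counts over the group.

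Library B was the highest of the sph/sph libraries in 20 of the 26 erythroid genes that rose, with a median ratio of 2.52 to the mean of A and C, and 18 of 26 reached a ratio of 1.5. Among the 196 other genes that rose B was highest in 77, with a median ratio of 0.953, and 51 reached 1.5; over all genes tested B was the highest in 37.3%. This is a description of 3 libraries, and the 2 groups of genes were not tested against each other. Hepatocyte markers were also highest in sph/sph B (summed level 5188 to 7431 CPM in WT and 4922 to 14434 CPM in sph/sph), while Hmox1, Marco, Spic and Vcam1 were lowest there. The erythroid count of 26 was 13 by limma-voom and 33 by DESeq2. It was 5 without WT saline B, 6 without WT saline C, 17 without sph/sph saline A and 14 without sph/sph saline B. Without the 4 libraries that lack Y-linked counts it was 2. Which of the other genes that rose were read from red cell precursors rather than macrophages was not tested.

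**Figure D4:**
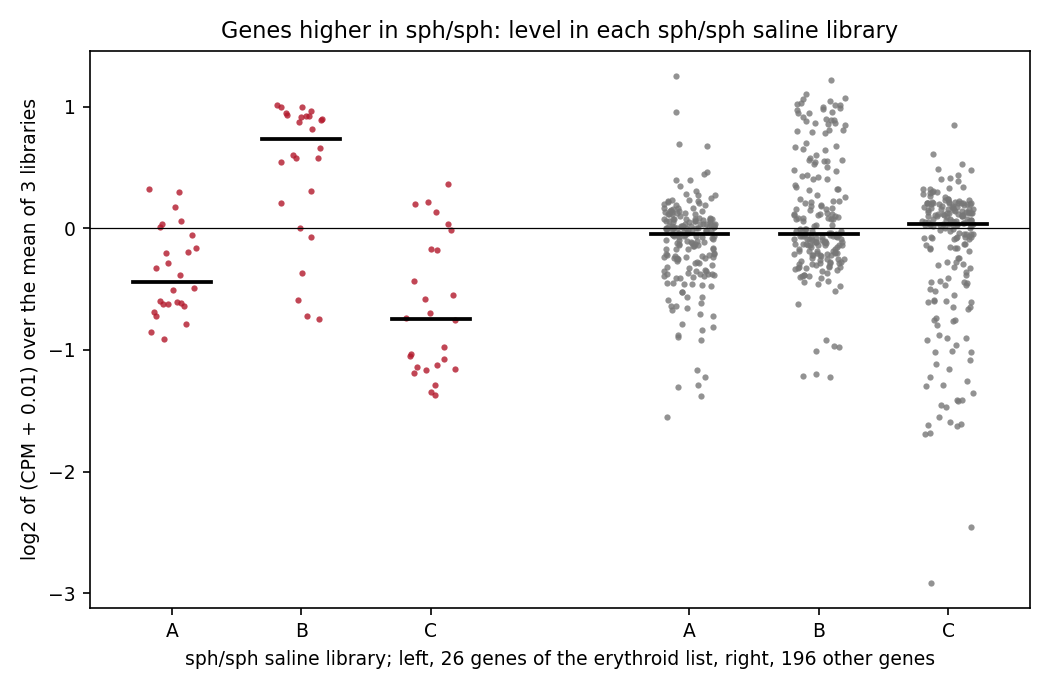
For genes higher in sph/sph, the log2 of the level in sph/sph saline library A, B or C (CPM + 0.01) over the mean of the 3, for 26 genes of the erythroid list (left, red) and 196 other genes (right, grey), with a line at the median. The erythroid medians are -0.44, 0.74 and -0.74 for A, B and C, and those of the other genes are -0.05, -0.05 and 0.03.

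GATA1 binds the letters AGATAA or their reverse complement, and 8.36% of the promoter windows held them. Of the 26 erythroid genes that rose 18 had a window, and 6 of these (33.3%) held the letters: Alas2, Epb42, Hbb-bs, Hemgn, Kel and Tmcc2. The share was 11 of 27 (40.7%) in the whole erythroid list and 13.9% among all genes that rose. The 250 bases before the start are shown for Kel, the one of these 6 with the largest fold (chr6:41704326-41704575, minus strand), and Alas2 (chrX:150547167-150547416, plus strand), with the match in capitals 56 and 86 bases before the start.
Kel: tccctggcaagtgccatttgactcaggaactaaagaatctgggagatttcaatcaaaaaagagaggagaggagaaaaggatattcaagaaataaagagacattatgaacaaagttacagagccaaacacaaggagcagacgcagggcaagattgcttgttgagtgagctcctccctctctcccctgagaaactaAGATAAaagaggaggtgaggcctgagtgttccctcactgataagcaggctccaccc
Alas2: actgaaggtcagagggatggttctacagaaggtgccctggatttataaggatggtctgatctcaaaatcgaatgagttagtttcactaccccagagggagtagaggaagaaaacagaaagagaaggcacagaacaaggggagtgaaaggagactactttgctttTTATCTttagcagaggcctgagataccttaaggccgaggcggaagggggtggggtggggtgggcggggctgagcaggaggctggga

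Of 20 genes of blood progenitors and granulocyte precursors 2 rose, Cd24a (7.52, 2.64 and 1.27 CPM in WT and 99.6, 269 and 73.1 CPM in sph/sph), which red cell precursors also carry, and Fcnb, a ficolin with 0 counts in WT and 1.06, 0.772 and 0.582 CPM in sph/sph (at least 13.7-fold higher); the list median was 3.60. This count was 0 without WT saline B, 1 without WT saline C, sph/sph saline A or sph/sph saline B, 5 without sph/sph anti-CD40 C and 10 by DESeq2. Ngp, a granule gene of neutrophil precursors, stood at 0 to 3.41 CPM in WT and 11.7 to 33 CPM in sph/sph and did not pass (edgeR adjusted p = 0.113). Of 16 eosinophil, basophil and mast cell genes 2 rose (median 3.46). None was called without WT saline A, WT saline B, sph/sph saline A, sph/sph saline B, sph/sph anti-CD40 B, WT anti-CD40 B or WT anti-CD40 C, 1 was without WT saline C or sph/sph saline C, and DESeq2 called 6. Epx, the eosinophil peroxidase, went from 0.386, 0 and 0 CPM in WT to 32.8, 6.0 and 2.5 CPM in sph/sph. Epx had each sph/sph library above each WT library and a log2 fold of 6.76 ± 1.37 (SE; edgeR adjusted p = 0.0346). It was far higher in sph/sph A than in B or C, and the granule gene Prg2 had the same order at 155, 22.4 and 12.7 CPM (edgeR adjusted p = 0.0517). Ccr3, the eotaxin receptor, was similar in the 3 sph/sph libraries, at 16.7, 18.2 and 86.4 CPM in WT and 247, 326 and 298 CPM in sph/sph. Ccr3 was higher in every sph/sph library, with a log2 fold of 2.84 ± 0.59 (SE; edgeR adjusted p = 0.0373). WT library C was the highest of its group. Of 19 megakaryocyte genes 0 were called by edgeR or limma-voom (7 higher and 1 lower at an unadjusted p under 0.05, 6 higher by DESeq2), with a median of 2.34; Vwf went from 6.81, 3.52 and 3.49 CPM in WT to 125, 220.1 and 24.4 CPM in sph/sph. Vwf did not overlap between the genotypes and did not pass the test, with a log2 fold of 4.74 ± 1.16 (SE; edgeR adjusted p = 0.0721).

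Markers of liver cells that the beads could carry along showed no called difference apart from Tspan8 among 9 bile duct genes (0.129, 0.165 and 0.166 CPM in WT and 2.0, 3.56 and 1.69 CPM in sph/sph), which was not called without any 1 WT saline library. By edgeR, 0 of 26 endothelial genes (median -0.63), 0 of 22 stellate cell genes (median -0.74) and 0 of 32 hepatocyte genes (median 0.05) were called. At an unadjusted p under 0.05 the numbers were 1, 3 and 0, DESeq2 called 1, 1 and 0, and limma-voom none. The log2 fold was negative in 24 of the 26 endothelial genes, 16 of the 22 stellate cell genes and 15 of the 32 hepatocyte genes. Their summed levels varied widely within a genotype: endothelial genes ran over 3540.5 to 7907 CPM in WT and 1941 to 4918 CPM in sph/sph, and stellate cell genes over 619 to 2784 CPM in WT and 294 to 1622 CPM in sph/sph. Of 31 T and NK cell genes, 23 B and plasma cell genes and 25 monocyte genes 0 were called by edgeR and by limma-voom (3, 2 and 5 at an unadjusted p under 0.05; 0, 1 and 2 by DESeq2), and likewise 0 of 40 cell cycle genes (2 unadjusted, 1 by DESeq2, 0 by limma-voom). The summed T and NK cell genes ran over 81.4 to 111 CPM in WT and 59.3 to 70.5 CPM in sph/sph, although 26 of the 31 had a positive log2 fold. Alb, serum albumin, stood at 2770.3, 1754 and 672 CPM in WT and 1902, 5148 and 782 CPM in sph/sph.

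The same genotypes were compared after anti-CD40 in 6 other libraries, which share none with the saline comparison. Both comparisons came from the same fit, in which all 12 libraries set the spread. The genes called under saline and after anti-CD40 are therefore not independent, and their overlap is a description. There 1598 genes were higher in sph/sph (11.5%) and 857 lower (6.19%). Of the 222 genes that rose under saline 154 rose after anti-CD40 too (69.4% of the 222, and 9.64% of the 1598), 65 were not called and 3 fell. Of the 60 that fell 23 fell again (38.3%, and 2.68% of the 857), 31 were not called and 6 rose. The log2 fold had the same sign in 201 of 222 and in 41 of 60. Among genes called in both, Wasf1 differed by a log2 fold of 6.40 under saline and 6.28 after anti-CD40, Mgst1 by 1.74 and 2.13, Colec12 by 3.09 and 4.07, Sort1 by 5.07 and 3.31, and Alas2 by 4.96 and 7.05. Hmox1 (2.91 and 3.46) and Marco (4.11 and 4.92) were also called in both, with an interaction edgeR adjusted p of 0.628 and 0.634.

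The interaction, which tests whether the genotype difference itself differs between treatments, was called for 595 genes (4.3%), among them 36 of the 222 and 17 of the 60. It subtracts the saline fold by which the 222 and 60 were picked, so their shares cannot be read against the 4.3%. The same choice bears on the fold sizes compared below. Cd207 and Adamdec1 reversed: lower in sph/sph under saline (-3.94 and -1.97) and higher after anti-CD40 (7.72 and 4.55; interaction edgeR adjusted p = 0.000168 and 3.81e-05). Cd207 stood at 0.133, 0.0525 and 0.246 CPM in WT after anti-CD40, near the floor, and at 13.4, 19.2 and 64.5 CPM in sph/sph, below its WT level under saline. Adamdec1 stood there at 2.79, 1.73 and 1.28 CPM in WT and 32.6, 43.3 and 59.1 CPM in sph/sph. Of the 29 Kupffer cell genes 18 had a negative log2 fold under saline. The summed Kupffer cell list, which includes Marco, did not reverse and had the higher mean in sph/sph in both treatments. Its mean was 49623 CPM (WT) against 61577 CPM (sph/sph) under saline, and 3922 CPM against 41421 CPM after anti-CD40. Its part in these differences was not tested. Cd9 differed by 2.22 under saline and -0.64 after anti-CD40 (edgeR adjusted p = 2.7e-05), and Cyfip2 by 2.19 and -0.31 (edgeR adjusted p = 0.00102). Egln3 and Elfn1 kept their direction with smaller folds after anti-CD40, 1.38 and 2.53 (edgeR adjusted p = 0.00363 and 0.00718). Slc48a1 had the larger fold after anti-CD40, 3.29 against 1.82 (edgeR adjusted p = 0.033). Slc2a1, 2.38 under saline, stood at -0.04 after anti-CD40 (edgeR adjusted p = 0.0451).

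**Figure D5:**
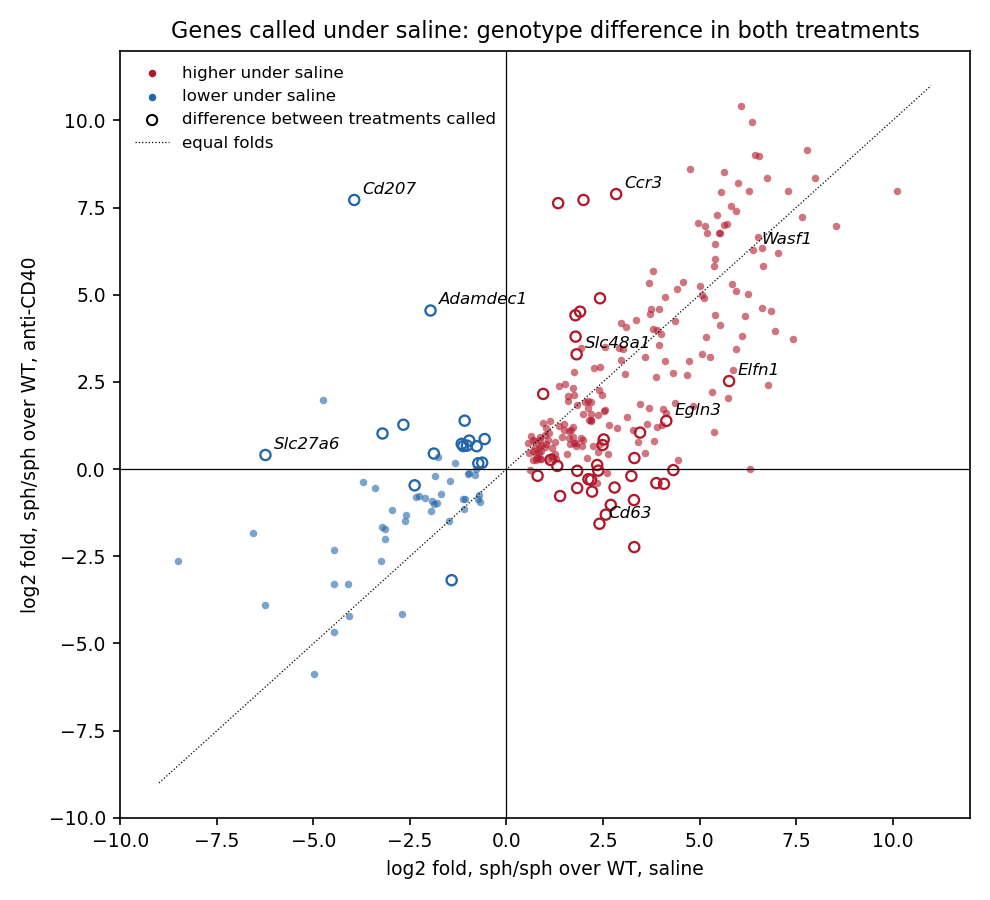
Log2 fold of sph/sph over WT under saline (x axis) and after anti-CD40 (y axis) for the 282 genes called under saline, red if higher and blue if lower there; open circles mark genes whose genotype difference differed between treatments, and the dotted line marks equal folds. Most red points lie above 0 on both axes, while Cd207 and Adamdec1 lie at upper left and Cd63 below 0 on the y axis.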

How the data were processed

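RNA-seq read counts per gene were deposited by the authors as one table of raw counts for 12 libraries of F4/80-enriched liver cells; STAR 2.7.0e, SAMtools 1.9, featureCounts and build GRCm38.p5 are named in the submitters' processing notes, and libraries were made with a stranded Illumina TruSeq kit, per the labels' protocols. Whether strand was used in counting is not given in the sources used here. Columns were matched to groups by their names. Symbols matched 25587 of 25700 identifiers, and coordinates are from GENCODE M21 (GRCm38), counted from 1. Genes were filtered with filterByExpr (13844 kept), scaled by TMM and fitted over all 12 libraries with robust quasi-likelihood in edgeR 4.0.16 (R 4.3.3), a mean per group and no covariate; p-values were Benjamini-Hochberg adjusted over all genes, with a threshold of 0.05. The SE was taken from the log2 fold and the F statistic. CPM uses TMM library sizes. Counting intervals and floors cover counting error only. The script was tested on simulated data. Results for some genes are not reported here.

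Gene lists and members were chosen with earlier results of these data known. Named genes were, per direction, the 10 largest folds (mean of at least 5 CPM in the higher group, no overlap), the 10 smallest p-values, the 10 most abundant per kilobase, called list members, up to 4 abundant others per list, and the 10 smallest p-values with the same call or a called interaction under anti-CD40. Alternatives were RLE scaling, DESeq2 1.42.0, limma-voom (limma 3.58.1), no filter, only the groups compared, no robust estimation, no haemoglobin genes, each library left out and, added after seeing the data, a sex term and a fit without the libraries lacking Y-linked counts.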

Additional observations from a re-analysis of the deposited data

Results flagged for a closer look

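Of the genes chosen for naming, 45 had a genotype difference that differed between saline and anti-CD40 by the interaction test (edgeR, adjusted p under 0.05), which is what drew attention to them; 24 of these were called under saline and 21 were not. The values in brackets are the log2 fold of sph/sph over WT after anti-CD40 minus that under saline. Among genes called under saline the difference was positive for Cd207 (11.66), Slc27a6 (6.65), Adamdec1 (6.52), Gfra2 (6.29), Ccr3 (5.05), Nat8l (2.48), Gpm6b (1.91), Slc48a1 (1.48) and Fech (1.21). Cd207, Adamdec1 and Slc27a6 were lower in sph/sph under saline and not lower after anti-CD40, while Gfra2, Ccr3 and Slc48a1 were higher in both with the larger fold after anti-CD40. It was negative for Fbxo22 (-0.88), Sept9 (-1.22), Fabp5 (-1.67), Il21r (-2.41), Slc2a1 (-2.42), Cyfip2 (-2.50), Egln3 (-2.76), Cd9 (-2.86), Galnt12 (-2.99), Elfn1 (-3.24), Uck2 (-3.33), Asns (-3.43), Mt2 (-3.88), Cd63 (-3.97) and Tspan33 (-4.50). All of these were higher in sph/sph under saline.

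Among genes not called under saline the difference was positive for Cd163 (11.03), Clec4f (9.31), Vsig4 (8.85), Cd5l (5.46), Slc40a1 (4.73), C1qc (4.16), Adgre1 (4.13), Ear2 (4.02), Ccl24 (3.98), C1qb (3.98), C1qa (3.52), Fcna (3.43), Apoc1 (3.30), Clec1b (3.02), Epor (2.92), P2ry12 (2.15) and Bnip3l (0.88). Of these Clec4f, Vsig4, Cd5l, Clec1b, Fcna, Slc40a1 and Adgre1 are on the Kupffer cell list. It was negative for Atf4 (-1.05), Irf8 (-1.41), S100a9 (-4.48) and Gzma (-7.12). With 3 libraries per group no test for a single deviating library applies, since that needs at least 4.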

How the results depend on the processing

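Every named gene that was called under saline kept its direction under every alternative run. RLE scaling, limma-voom, no filter, no robust estimation, leaving out the haemoglobin genes and a sex term (added after seeing the data) kept both saline counts within 1.5 times of 222 and 60. DESeq2 gave 568 higher and 263 lower under saline, 1465 lower under anti-CD40, 1393 interactions, and 337 higher and 85 lower in both treatments. Fitting only the groups compared gave 533 and 358 under saline and 494 and 241 under anti-CD40. Leaving out 1 library gave 61 to 383 higher and 12 to 156 lower under saline, 954 to 1893 and 401 to 1515 under anti-CD40, 259 to 944 interactions, and 43 to 245 higher and 7 to 52 lower in both treatments; the lowest saline counts were without WT saline B and the highest without sph/sph anti-CD40 C. Without the 4 libraries lacking Y-linked counts (added after seeing the data) edgeR gave 13 and 0 under saline, 879 and 295 under anti-CD40, 153 interactions, and 12 and 0 in both; 2 libraries per group then remain. By edgeR 531 genes were lower at an unadjusted p under 0.05 in that fit. Of the named genes' values under the alternatives, 4354 kept their side of the threshold, 497 lost significance and 56 gained it. Depth limits genes near 3 counts per group, and the common biological coefficient of variation of 0.382 limits small folds. No paired analysis was possible because the columns of the count table carry no replicate number. Within each treatment only the A libraries share an identifier between the genotypes compared, which is too few for a block.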

Other observations

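Several genes outside the lists and the naming rule, chosen after their values were seen, stood out under saline. Erfe, the hormone erythroferrone that red cell precursors secrete to lower hepcidin, went from 0.321, 0 and 0.0554 CPM in WT to 3.66, 11.8 and 1.98 CPM in sph/sph. Erfe did not overlap between the genotypes and had a log2 fold of 5.52 ± 1.16 (SE; edgeR adjusted p = 0.0399). Its highest sph/sph library was B, as in most erythroid genes that rose. Gdf15, a stress hormone, went from 1.61, 0.769 and 0.554 CPM in WT to 17.5, 18.1 and 7.91 CPM in sph/sph. Gdf15 rose with a log2 fold of 3.89 ± 0.60 (SE; edgeR adjusted p = 0.0097) and a gap between the genotypes. Slc43a1, an amino acid transporter, went from 0.643, 0.494 and 0.277 CPM in WT to 14.5, 34.7 and 10.6 CPM in sph/sph. Slc43a1 had each sph/sph library above each WT library and a log2 fold of 5.39 ± 0.63 (SE; edgeR adjusted p = 0.00402). Dmtn, dematin of the red cell skeleton, went from 1.16, 1.37 and 1.11 CPM in WT to 17.6, 44.8 and 10.4 CPM in sph/sph. Dmtn was higher in every sph/sph library, with a log2 fold of 4.31 ± 0.62 (SE; edgeR adjusted p = 0.00722).

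Kif1a, a kinesin motor known from neurons, went from 0.771, 0.934 and 1.11 CPM in WT to 37.8, 32.6 and 43.5 CPM in sph/sph. Kif1a did not overlap between the genotypes and had a log2 fold of 5.32 ± 0.69 (SE; edgeR adjusted p = 0.00541). With Sort1, Elfn1, Cd9, Wasf1, Egln3, Asb2 and Glis3 it belonged to the 8 genes that were called in every one of the 12 fits leaving out 1 library and the 9 other fits. None of the 8 is an erythroid list member, against 26 of all 222 genes that rose. With so few genes this is little different from that share. Asb2, a ubiquitin ligase adaptor, stood at 42.1, 21 and 26 CPM in WT and 160.2, 151 and 148 CPM in sph/sph, and Glis3, a zinc finger factor, at 0.257, 1.37 and 1.33 CPM in WT and 11, 16.9 and 15.9 CPM in sph/sph. Nrg4, a growth factor of the epidermal growth factor family, went from 0.707, 0.659 and 0.665 CPM in WT to 14.1, 13 and 15.5 CPM in sph/sph. Nrg4 rose with a log2 fold of 4.38 ± 0.73 (SE; edgeR adjusted p = 0.0151) and a gap between the genotypes.

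Among genes that fell, Edil3, a matrix protein that binds integrins and dying cells, went from 1.67, 2.14 and 4.21 CPM to 0 counts in sph/sph, at least 44.5-fold lower against a floor of 3 counts over the group. Itgb7, an integrin chain of lymphocytes and other leukocytes, stood at 100.1, 62.6 and 25.2 CPM in WT and 16.2, 12.8 and 10.1 CPM in sph/sph. Itgb7 had each sph/sph library below each WT library and a log2 fold of -2.27 ± 0.48 (SE; edgeR adjusted p = 0.0399). Its WT libraries had the same order as those of the MHC class II genes. Ciita, the transactivator of MHC class II genes, stood at 82.1, 57.4 and 48.5 CPM in WT and 19.1, 11.7 and 6.4 CPM in sph/sph, without overlap, and did not pass (edgeR adjusted p = 0.0827).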
